A study of Mus musculus with 4 samples.

Results

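Duodenum of transgenic mice expressing a constitutively activated aryl hydrocarbon receptor (AhR) was compared with duodenum of wild-type mice. The comparison used 2 of the 4 arrays of the study, 1 for each genotype; the other pair of arrays measured liver and is used only for side-by-side values. Each array carried RNA pooled from 3 female mice aged 5 to 6 weeks that ate standard rodent chow. The labels name no drug or AhR ligand for either group. RNA was extracted with Trizol, labelled as biotinylated cRNA and hybridised to the Affymetrix Mouse Genome 430 2.0 array, which reads each transcript through 1 or more probe sets near its 3′ end. The sources used here give neither the strain nor the promoter and cell types that drive the transgene. All genes were in scope: 18194 genes had a probe set of their own, and 14626 of them lay above a floor of 138.2 signal units, which is the 40th percentile of the probe sets, on at least 1 duodenum array. With 1 pooled array per genotype there is no replicate, so no value below has an error or a test, and every fold describes these 2 pools.

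AhR is a transcription factor of the basic helix-loop-helix PAS family that waits in the cytoplasm with the chaperone Hsp90. Ligands such as dioxins and dietary indoles move it into the nucleus, where it pairs with Arnt and binds DNA at sites with the core GCGTG. Its classical targets are the CYP1 cytochromes, which oxidise aromatic compounds, and the feedback inhibitors Ahrr and Tiparp. In the intestine AhR is known for inducing Cyp1a1 in the epithelium and for its part in intraepithelial lymphocytes and innate lymphoid cells. The duodenum is the first stretch of the small intestine; it holds villi, crypts and the mucus-secreting Brunner glands, and it lies against the stomach and the pancreas.

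The bases before the annotated start are shown for 3 AhR targets, Cyp1a1, Cyp1b1 and Tiparp, and for Mcm6 and Ckap4, which were higher on both the duodenum and the liver array of the transgenic mice. They come from RefSeq on build GRCm38.p6 and run 250 bases, 5′ to 3′ along the gene. Capitals mark GCGTG or, where the motif lies on the opposite strand, its complement CACGC. Cyp1a1 lies at chr9:57697363-57697612 (+ strand), Cyp1b1 at chr17:79715062-79715311 (- strand), Tiparp at chr3:65528197-65528446 (+ strand), Mcm6 at chr1:128359706-128359955 (- strand) and Ckap4 at chr10:84533889-84534138 (- strand).
Cyp1a1: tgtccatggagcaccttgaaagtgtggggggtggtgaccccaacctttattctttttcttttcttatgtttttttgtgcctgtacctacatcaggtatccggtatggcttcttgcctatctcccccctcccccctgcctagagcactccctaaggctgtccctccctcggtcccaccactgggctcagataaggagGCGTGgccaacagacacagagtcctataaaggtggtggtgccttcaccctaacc
Cyp1b1: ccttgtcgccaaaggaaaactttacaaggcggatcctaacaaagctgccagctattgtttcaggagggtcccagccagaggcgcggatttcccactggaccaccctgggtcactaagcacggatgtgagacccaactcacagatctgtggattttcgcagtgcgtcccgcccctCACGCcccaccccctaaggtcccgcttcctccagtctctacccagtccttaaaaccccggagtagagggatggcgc
Tiparp: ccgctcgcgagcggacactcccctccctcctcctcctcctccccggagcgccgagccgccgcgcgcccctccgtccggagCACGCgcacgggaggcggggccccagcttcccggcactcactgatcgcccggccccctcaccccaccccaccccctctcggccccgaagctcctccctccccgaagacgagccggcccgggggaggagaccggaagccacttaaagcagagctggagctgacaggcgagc
Mcm6: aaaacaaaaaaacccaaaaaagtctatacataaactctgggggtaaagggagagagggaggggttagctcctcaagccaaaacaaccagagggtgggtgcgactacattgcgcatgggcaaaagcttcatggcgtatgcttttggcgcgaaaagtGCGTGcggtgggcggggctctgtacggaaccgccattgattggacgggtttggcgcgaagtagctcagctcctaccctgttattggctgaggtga
Ckap4: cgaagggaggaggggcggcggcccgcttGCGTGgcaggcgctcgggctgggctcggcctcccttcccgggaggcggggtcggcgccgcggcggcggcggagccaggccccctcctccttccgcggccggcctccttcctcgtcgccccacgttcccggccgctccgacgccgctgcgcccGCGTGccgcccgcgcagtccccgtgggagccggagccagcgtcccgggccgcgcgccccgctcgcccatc
The first base of the motif, read along the gene, lay 54 bases before the start of Cyp1a1, 76 before that of Cyp1b1, 170 before that of Tiparp, 95 before that of Mcm6, and 222 and 70 before that of Ckap4. Windows of 300 bases, the 250 shown and 50 after the start, were held for 9 of the 12 AhR target genes on the arrays, and 5 of the 9 contained the motif on either strand, with Ahrr and Lpcat2 as the others. Of the 5 supported genes with the widest shared difference in liver, 2 contained it; these are Mcm6 and Ckap4, shown for that reason, while the windows of Cela3b, Prss2 and Trim30d had no match. Of all 27025 such windows, which include those of genes not measured here, 32.2% contained it. Of the 11687 windows held for genes above the floor, 46.8% contained it, and this share is the closer background. None of the 6 windows held for the 9 MHC class II genes did. Too few genes had a window for these counts to be compared with those shares. A match describes the letters of the window and does not show binding.

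The label duodenum was checked against markers of intestinal regions. All 11 markers of proximal epithelium lay above the floor, among them the duodenal homeobox factor Pdx1, with a signal of 1115 in the wild-type and 1158 in the transgenic pool. The ileal bile acid-binding protein gene Fabp6 was below the floor on both arrays, at 15.6 and 19. Of 8 markers of distal epithelium, however, 5 lay above the floor. Among these were Slc51a at 2978 and 6404, Slc51b at 1206 and 1034, and Slc30a10 at 1197 and 432. A place above the floor separates regions little, since 14626 of all 18194 genes had it. The arrays differed in several respects that the genotype labels do not describe. The 3′/5′ signal ratio of Gapdh, which rises as RNA shortens or as labelling stops early, was 1.03 in the wild-type and 3.07 in the transgenic duodenum pool, against 0.608 and 0.719 in the liver pools; for Actb it was 1.77 and 2.69 in duodenum. The 5′ probe set of Gapdh was 2.16-fold lower in the transgenic pool and its 3′ probe set 1.38-fold higher. Probe sets for 18S ribosomal RNA were 4.18-fold to 11.2-fold lower. The 18 probe sets of the spiked hybridization controls had a median log2 ratio of 0.05 (range -0.62 to 0.59). The median log2 ratio of all 14626 genes was -0.11.

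The direction of a difference also went with the kind of probe set. Identifiers that end in _a_at, _s_at or _x_at mark probe sets that can bind several transcripts of a gene or of related genes. Among duodenal probe sets with a signal of 1000 or more, 31.5% of the 723 ending in _x_at were 2-fold or more higher in the transgenic pool and 2.77% lower. Of the 4106 with the plain ending, 10.8% were higher and 11.7% lower. The median log2 ratio was 0.64 for _x_at, 0.38 for _s_at, 0.28 for _a_at and -0.01 for plain probe sets. On the liver arrays the same medians lay between -0.03 and 0.04. The part of RNA quality and of probe design in the differences below was not tested.

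**Figure D1:**
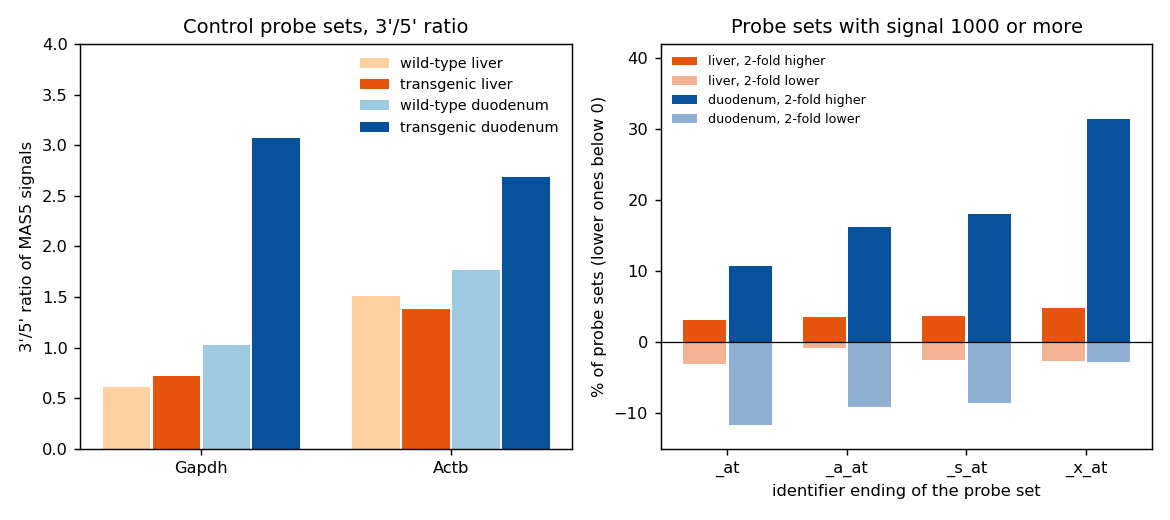
Left, the ratio of the 3′ to the 5′ probe set signal of Gapdh and Actb on each of the 4 arrays; the transgenic duodenum bars are the highest of both genes, at 3.07 and 2.69. Right, the percentage of probe sets with signal 1000 or more that were 2-fold higher (above 0) or lower (below 0) in the transgenic pool, by identifier ending and tissue; in duodenum the higher share goes from 10.8% for plain _at probe sets to 31.5% for _x_at.

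Genes were called higher or lower when their brightest probe set differed by 2-fold or more, with signals under the floor raised to it. In transgenic duodenum 1277 genes (8.73% of 14626) were higher and 1508 (10.3%) lower. These shares are the background for each list count below. For list members with a signal of 1000 or more, the shares in the next sentence are the closer background. Of the 4760 genes with a signal of 1000 or more on 1 array, 720 (15.1%) were higher and 322 (6.76%) lower. Higher genes made up 45.9% of the calls over all signals, but 59.5% after quantile normalization and 60% after setting the gene medians equal, with 60.3% under a floor at the 60th percentile. Because this split moved with scale and floor, single genes were also held to a stricter rule. A gene was called supported when it had a signal of 1000 or more, at least 1 further probe set 2-fold in the same direction and none 2-fold in the other. Of 2959 genes with that signal and 2 or more probe sets, 135 (4.56%) were supported higher and 106 (3.58%) supported lower. Probe sets of a gene share the same RNA, so their agreement is not replication. Of the 656 such genes called, 47 had a probe set pointing 2-fold the other way and 368 had others under 2-fold. When _a_at, _s_at and _x_at probe sets were left out, 22 of the 135 higher genes and 72 of the 106 lower genes were still supported, and 11 further genes became supported lower.

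**Figure D2:**
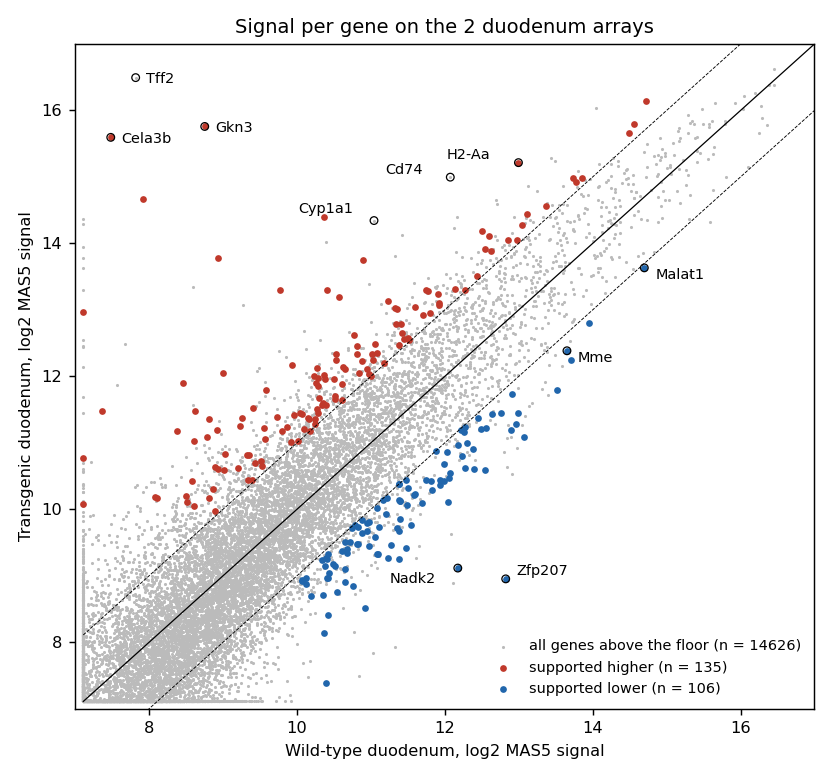
Log2 signal of each of the 14626 genes above the floor in wild-type (horizontal axis) and transgenic duodenum (vertical axis), 1 array each; signals under the floor are drawn at it, the solid line marks equal signal and the dashed lines 2-fold. The 135 supported higher genes (red) reach up to Cela3b and Gkn3, far above the line, and the 106 supported lower genes (blue) reach down to Zfp207; circled Tff2, Cyp1a1 and Cd74 have a single probe set above the floor and so cannot be supported.

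Among the AhR target genes the CYP1 cytochromes were higher in transgenic duodenum. Cyp1a1 had a signal of 2110 in the wild-type and 20796 in the transgenic pool, 9.86-fold higher on its single probe set. That probe set has the _a_at ending. Cyp1a2, a related cytochrome best known from liver, was at 19.1 and 1315, at least 9.51-fold higher. Both therefore separated the pools clearly, although neither has a second probe set. Cyp1b1, the CYP1 member of many tissues outside the liver, gave 133 and 348 on its brighter probe set, at least 2.51-fold higher, but 289 and 146 on the other, 1.99-fold lower. Tiparp, an ADP-ribosyltransferase that limits AhR activity, gave 1842 and 3754 on 1 probe set, 2.04-fold higher. Its other probe sets gave 2149 and 2049, and 497 and 267. The Tiparp call was lost under quantile normalization, at a log2 ratio of 0.85, and the probe sets of Cyp1b1 and Tiparp thus do not agree among themselves.

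The remaining AhR targets showed smaller or opposite differences. Nfe2l2, the NRF2 transcription factor, was at 8122 and 3619, 2.24-fold lower, and its dimmer probe set was 1.24-fold lower. Nqo1, a quinone reductase induced through both AhR and NRF2, was at 827 and 622, and the cytochrome Cyp2s1 at 2026 and 3622. Ahrr and the aldehyde dehydrogenase gene Aldh3a1 were below the floor on both duodenum arrays. In all, 4 of the 10 AhR targets above the floor were 2-fold or more higher and 1 was lower, against 8.73% and 10.3% of all genes. Their median log2 ratio was 0.54, against -0.11 over all genes. None was supported, but only 2 of the 10 had the signal and the second probe set that this rule needs. Ahr itself was lower: its probe sets gave 2123 and 590 (3.60-fold lower) and 508 and 288 (1.77-fold lower). Whether these probe sets read the transgene transcript was not tested, so they do not check the labels. Arnt, the DNA-binding partner, was at 1002 and 657 on its brightest probe set, 1.53-fold lower, but another was 2.25-fold higher. Nrip1, a nuclear receptor corepressor that AhR can induce, was at 6948 and 2801, 2.48-fold lower, with 6 of 6 probe sets lower and 2 of them by 2-fold or more.

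**Figure D3:**
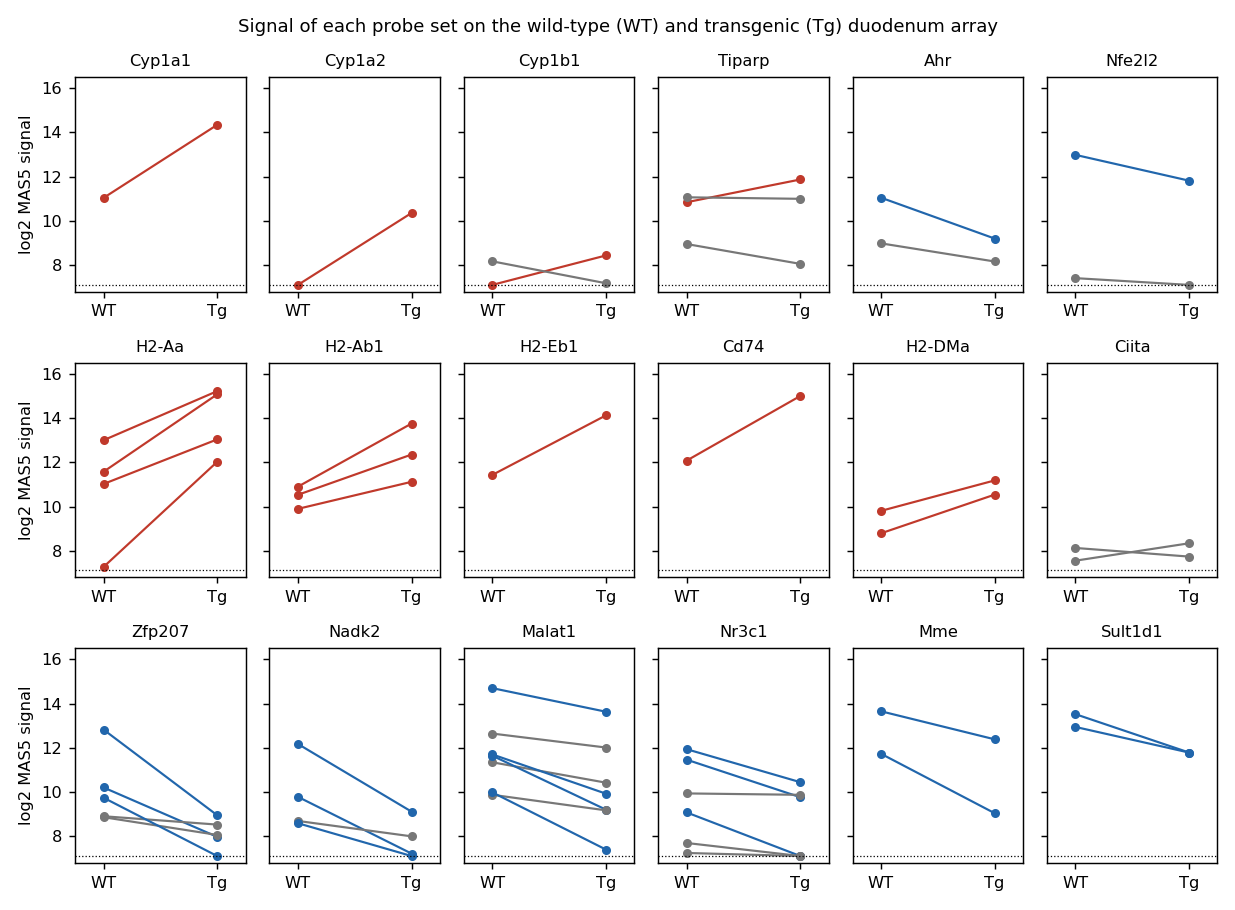
Log2 signal of each probe set above the floor (1 line per probe set) on the wild-type (WT) and transgenic (Tg) duodenum array for 18 genes; the dotted line is the floor, red lines are 2-fold or more higher, blue 2-fold or more lower, grey neither. All 4 probe sets of H2-Aa go up and all 3 of H2-Ab1, both of Ahr go down, and those of Cyp1b1 and Tiparp diverge.

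Several genes known from the exocrine pancreas, the Brunner glands and the stomach, among them Cela3b, Prss2, Tff2 and Gkn3, had folds above that of Cyp1a1, while other members of these lists had smaller folds or lay within 2-fold. Of 22 exocrine pancreas genes above the floor, 16 were higher and 0 lower, 5 of them supported, with a median log2 ratio of 4.53 when members at the floor are entered at their bound; without the multi-transcript probe sets the median was 3.04. Their summed signal was 148695 in the wild-type and 349176 in the transgenic pool. In bulk tissue, fewer or more cells of a type and less or more RNA per cell cannot be told apart, here and for each cell type below. Cela3b, a digestive elastase, went from 179 in the wild-type to 49510 in the transgenic pool, 277-fold higher, and its 3 other probe sets were 16.7-fold, at least 70.1-fold and at least 120-fold higher. Prss2, a trypsinogen, was at 242 and 26022, 107-fold higher, with all 4 probe sets at 15.1-fold or more. Sycn, a zymogen granule protein, was at 40.1 and 8026, at least 58.1-fold higher. Clps, the cofactor of pancreatic lipase, was at 1319 and 21639 on 1 probe set and at 2979 and 9536 on the other, 16.4-fold and 3.20-fold higher. The log2 ratio of the gene was 4.04, and 1.40 under quantile normalization. The brightest probe set was chosen anew in that setting, and the other probe set had a log2 ratio of 1.68 before it. The RIKEN gene 2210010C04Rik was at 489 and 14001, 28.6-fold higher, with a further probe set at least 116-fold higher and the last at 435 and 466. Pnliprp2, a lipase-related protein, was 10.9-fold and 5.49-fold higher on its pair of probe sets. The secretory genes Reg1, Spink1 and Zg16, which intestinal epithelium also makes, were bright in both pools, with log2 ratios of -0.83, 0.15 and 0.19. The acinar transcription factors Ptf1a and Bhlha15 gave 239 and 34.8, and 370 and 401. Insulin from islets (Ins2) was at 103 and 454, at least 3.28-fold higher, with a log2 ratio of 0.71 under a floor at the 60th percentile.

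Brunner gland and gastric genes were higher as well, in 10 of 12 cases, with 0 lower and a median log2 ratio of 1.99. Of all genes, 8.73% were higher and 10.3% lower. Among the 10, Gkn1 and Bpifb1 had log2 ratios of 0.79 and 0.13 under a floor at the 60th percentile. Ctse was 3.80-fold higher on 1 probe set and at least 11.4-fold lower on the other. The summed signal of the list was 4674 in the wild-type and 165015 in the transgenic pool. Tff2, a mucus-stabilising peptide secreted by these glands, was at 226 and 92302, 409-fold higher on its single probe set. Gkn3, a gastrokine, was at 432 and 55468 on 1 probe set and at 364 and 54689 on the other, 129-fold and 150-fold higher, so both readings agree. Pepsinogen C (Pgc) was at 46.2 and 2787, at least 20.2-fold higher, the water channel Aqp5 at 11.4 and 1555, at least 11.2-fold, and A4gnt, which caps the mucin glycans of these glands, at 345 and 1437, 4.16-fold. Atp4b, the acid pump subunit of gastric parietal cells, did not share this difference, at 573 and 498. Tff1, the trefoil peptide of the gastric surface, was at 2142 and 6353, 2.97-fold higher. On the liver arrays Tff2 was at 84.2 and 2059, at least 14.9-fold higher in the transgenic pool, and Gkn3 was 2.28-fold higher. Tff1, Gkn2 and A4gnt were 1.49-fold, 1.26-fold and 1.24-fold lower there. The part of pancreatic, glandular or gastric tissue in the other differences of the transgenic pool was not tested.

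Other supported higher genes belonged to several classes. Klk1, a tissue kallikrein, was at 872 and 10128, 11.6-fold higher, with 3 of 4 probe sets 2-fold higher and the last at 824 and 569. Clu, the secreted chaperone clusterin, was at 1525 and 9401, 6.17-fold higher, and its 3 other probe sets were 6.30-fold to 11.8-fold higher. Ttr, the thyroxine carrier made in liver and pancreatic islets, was at 164 and 2849, 17.3-fold higher. Ttr was 1 of 2 higher genes among 6 measured hepatocyte markers, whose median log2 ratio was 0.15. Lmna, which encodes the lamins A and C of the nuclear envelope, was 5.87-fold, 4.13-fold and 3.55-fold higher on its 3 probe sets. Nfix, a transcription factor, was at 270 and 1167, 4.33-fold higher with 3 of 3 probe sets 2-fold or more higher. Tnpo3, a nuclear import receptor, was at 680 and 2950, 4.34-fold higher, but its log2 ratio was 0.36 on the plain probe set. Ckap4, a membrane protein of the endoplasmic reticulum, was at 396 and 2864, 7.24-fold higher, and 2 of its 3 other probe sets were 2-fold or more higher.

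Of the 22 higher genes supported by plain probe sets alone, Mark2, a kinase of cell polarity, was at 390 and 2085 and at 93.4 and 1169, 5.35-fold and at least 8.45-fold higher, while its _s_at probe set was 1.69-fold lower. Cd44, the hyaluronan receptor of crypt cells and leukocytes, was at 766 and 3555 and at 654 and 1652, 4.64-fold and 2.53-fold higher. Ccnd1, the cyclin of early cell cycle entry, was at 1330 and 3965, 2.98-fold higher, with further probe sets at 1.36-fold and at least 6.23-fold. Hbegf, a ligand of the epidermal growth factor receptor, was 4.06-fold higher, and Tnrc18, a chromatin protein, 4.97-fold. Os9, a lectin of endoplasmic reticulum quality control, was 3.59-fold higher, and Hdgf, a nuclear growth factor, 2.78-fold. Aldh2, the mitochondrial aldehyde dehydrogenase, was 2.26-fold higher and Thra, a thyroid hormone receptor, 2.29-fold.

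MHC class II genes, which present antigen to CD4+ T cells, were higher in transgenic duodenum. Of 9 measured members 5 were higher and 0 lower, against 8.73% and 10.3% of all genes, 3 of them supported, and the median log2 ratio was 1.38. The 4 probe sets of H2-Aa gave 8171 and 38040, 3044 and 34416, 2076 and 8388, and 154 and 4157, which is 4.66-fold, 11.3-fold, 4.04-fold and 27.0-fold higher. H2-Ab1 was at 1907 and 13783, 7.23-fold higher, and its other probe sets were 3.53-fold and 2.33-fold higher. The invariant chain gene Cd74 was at 4313 and 32693, 7.58-fold higher on 1 probe set, and H2-Eb1 at 2754 and 17800, 6.46-fold. H2-DMa, which loads peptides, was 2.60-fold and 3.36-fold higher. All bright structural chains thus pointed the same way. The master regulator Ciita was at 188 and 324, below 2-fold, and H2-Oa, H2-Ob and the protease gene Ctss had log2 ratios of -0.20, -0.60 and 0.31. H2-Aa, H2-Ab1 and Cd74 were read only by multi-transcript probe sets, without which the list median was 0.055; H2-Eb1 and H2-DMa were higher on plain probe sets. On the same probe sets in liver, H2-Ab1 was 2.45-fold, H2-Aa 1.71-fold, Cd74 1.45-fold and H2-Eb1 1.36-fold lower in the transgenic pool.

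Markers of cells that carry MHC class II did not show the same difference. Among 13 macrophage and dendritic cell genes 0 were higher and 1 was lower, the median log2 ratio was 0.00, and their summed signal was 18015 in the wild-type and 17125 in the transgenic pool. The macrophage receptor Csf1r was at 3667 and 5221, and the dendritic cell integrin Itgax had a log2 ratio of -1.27. Of 10 B cell and plasma cell genes 5 were lower and 1 was higher, against 10.3% and 8.73% of all genes. Their median log2 ratio was -0.91. Their summed signal was 45468 and 33617, but without Jchain, the brightest member, it was 8346 and 8658. The B cell surface protein Ms4a1 was at 865 and 145, 5.96-fold lower, the kinase Blk at 574 and 166, 3.45-fold lower, and the receptor chain Cd79b at 425 and 99.9, at least 3.07-fold lower (log2 ratio -0.61 under a floor at the 60th percentile). Pou2af1, a B cell coactivator, and Pax5, the B cell identity factor, were 2.68-fold and 2.37-fold lower, the latter with a log2 ratio of -0.92 under quantile normalization. Immunoglobulin genes did not follow these markers. Igha, the IgA heavy chain, was at 26920 and 72361 on 1 probe set and 2.69-fold, 2.21-fold and 3.73-fold higher on its 3. Ighm was 2.16-fold and 2.42-fold higher on 2 of 7 probe sets and below 2-fold on the others, with a log2 ratio of 0.87 under quantile normalization and loess and 0.08 on plain probe sets, while Jchain, the joining chain, was at 37122 and 24959.

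Other immune lists were mixed. Of 30 interferon response and class I processing genes 3 were higher and 5 lower (median log2 ratio -0.19), against 8.73% and 10.3% of all genes. The class I peptide handling genes Psmb10, Tap1 and Tapbp were 3.56-fold, 3.44-fold and 3.12-fold higher, each on 1 probe set. The other probe set of Tapbp was 1.28-fold lower. With the mean of all probe sets the log2 ratios of Tapbp and Tap1 were 0.64 and 0.45. That mean enters probe sets below the floor on both arrays at 0, and Tap1 had only 1 probe set above the floor. B2m, the class I light chain, was at 49141 and 20516, 2.40-fold lower (log2 ratio -0.84 with the mean of probe sets). Among interferon-induced genes, Stat2 was at least 3.68-fold, Gbp3 at least 2.52-fold and Mx1 at least 2.29-fold lower (log2 ratios of -0.87, -0.32 and -0.19 under a floor at the 60th percentile), and Ddx60, an RNA helicase, 10.1-fold lower on 1 of its probe sets and 1.43-fold higher on the other. Outside that list, Ifit1bl2 of the IFIT family was at 8580 and 2175, 3.94-fold lower, and Trim30d at 1934 and 368, 5.26-fold lower, each with a second probe set agreeing. Members of this list thus lay on both sides. Among 16 T cell and intraepithelial lymphocyte markers 1 was higher and 3 were lower (median -0.17), including granzyme B (Gzmb) at 1425 and 603, 2.37-fold lower. All 4 measured markers of innate lymphoid and IL-17 type cells were lower than wild type in value, with a median of -0.73 and 1 past 2-fold. Of the 22 measured chemokine and cytokine genes 1 was higher and 4 were lower. Ccl20, which attracts CCR6+ cells to lymphoid follicles, was at 586 and 74.0, at least 4.24-fold lower, and Il15, a survival factor of intraepithelial lymphocytes, at 1538 and 556, 2.77-fold lower.

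**Figure D4:**
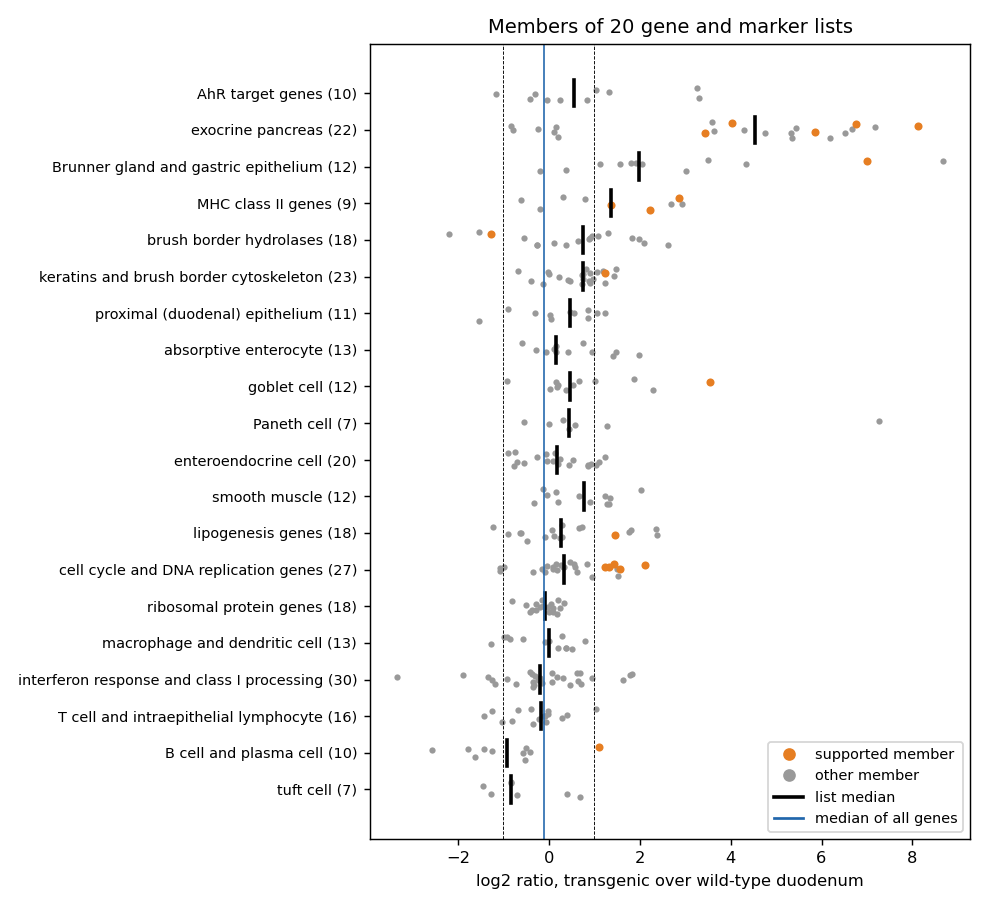
Log2 ratio of transgenic over wild-type duodenum for each member above the floor in 20 lists, with the number of members in brackets; orange points are supported, black bars are list medians, the blue line is the median of all genes (-0.11) and dashed lines mark 2-fold. Exocrine pancreas, Brunner gland and gastric, and MHC class II genes have medians of 4.53, 1.99 and 1.38, B cell markers one of -0.91, and ribosomal protein genes cluster near 0.

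The most abundant products of absorptive epithelium were close in signal between the pools. Of 13 genes typical of enterocytes 3 were higher and 0 lower, with a median log2 ratio of 0.16; the intestinal fatty acid-binding protein Fabp2 was at 89808 and 85665 and the apolipoprotein Apoa4 at 67984 and 76109. Brush border enzymes were more varied, with 6 higher and 3 lower of 18 and a median of 0.76. Over all genes the shares were 8.73% higher and 10.3% lower, and 15.1% and 6.76% of genes with a signal of 1000 or more. The peptidases Ace and Anpep were at 4465 and 19186 and at 16960 and 67050, 4.30-fold and 3.95-fold higher, and Naaladl1 at 720 and 4454, 6.18-fold. In contrast the endopeptidase gene Mme was at 12876 and 5350 and at 3403 and 529, 2.41-fold and 6.44-fold lower, and the alkaline phosphatase Akp3 at 7360 and 1594, 4.62-fold lower. The enzyme that activates trypsinogen, Tmprss15, had a log2 ratio of -1.53. Alpi, another alkaline phosphatase, was at 33953 and 36939. Members of this enzyme class therefore lay on both sides, among them bright genes.

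Nutrient transporters had 5 higher and 0 lower of 19 (median log2 ratio 0.51). Slc43a2, a neutral amino acid transporter, was at 6642 and 25872, 3.90-fold higher, Slc3a2, the heavy chain of amino acid exchangers, at 4570 and 14971, 3.28-fold, and the peptide transporter Slc15a1 at 4035 and 10665, 2.64-fold. The glucose transporter Slc5a1 was at 30013 and 33109. Of 23 keratin and brush border cytoskeleton genes 6 were higher and 0 lower, and of 25 junction genes 6 were higher and 1 lower, against 8.73% and 10.3% of all genes and 15.1% and 6.76% of genes with a signal of 1000 or more. Krt8, a simple epithelial keratin, was at 24172 and 57085, 2.36-fold higher, and Dsp, a desmosome linker, at 3324 and 7781, 2.34-fold, with a log2 ratio of 0.96 under quantile normalization and 0.98 under loess. Jup, the plakoglobin of desmosomes, was 3.94-fold higher and Cdhr2, a cadherin that links microvilli, at 7812 and 21688, 2.78-fold. Ocln, a tight junction protein, was at 2869 and 1437, just under 2-fold lower. Smooth muscle markers were higher beside these lists, with 5 of 12 called, 0 lower and a summed signal of 22834 and 35372; their median of 0.78 was 0.18 without multi-transcript probe sets.

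Secretory cells showed selective differences, beside 8.73% higher and 10.3% lower over all genes. Of 12 goblet cell genes 4 were higher and 0 lower: Klk1, the transcription factors Spdef (397 and 1932, 4.86-fold) and Creb3l1 (502 and 1838, 3.66-fold), and the mucin Muc2 (6765 and 13595, 2.01-fold, and a log2 ratio of 0.68 under quantile normalization). The goblet cell peptides Tff3 and Retnlb were at 36662 and 47881 and at 10633 and 5580, below 2-fold. Among 7 Paneth cell genes, the defensin Defa31 was at 85.4 and 21168, at least 153-fold higher, while Lyz1 was at 56723 and 56960 and Defa39 at 20779 and 36877. Defensin probe sets cannot separate close family members, so the member is uncertain. Of antimicrobial genes made by enterocytes, Pglyrp1, which binds peptidoglycan, was at 617 and 8581, 13.9-fold higher. The lectins Reg3b and Reg3g were 3.32-fold and 2.36-fold higher, with the second probe set of Reg3b at 1.81-fold. Over the 19 measured genes of IL-22 and bacterial response of the epithelium, 3 were higher and 2 lower (median log2 ratio -0.08). Tuft cell markers had 0 higher and 2 lower of 7 (median -0.83).

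Cell cycle genes held 5 supported higher members, Mcm2, Ccnd1, Mcm6, Mcm7 and Cdc20. Without multi-transcript probe sets only Ccnd1 of these was still supported. Of 27 measured 7 were higher and 2 lower (median log2 ratio 0.33), against 8.73% and 10.3% of all genes. Mcm2, a subunit of the replication helicase, was at 612 and 2647 and at 315 and 649, 4.32-fold and 2.06-fold higher. Mcm6 of the same helicase was at 390 and 1059 and at 234 and 945, 2.72-fold and 4.04-fold higher. The sliding clamp gene Pcna and the replication factor Gins1 had log2 ratios of -1.08 and -1.07, and the proliferation marker Mki67 one of 0.33. Of 11 crypt stem and progenitor markers 3 were higher, with Lgr5, the stem cell receptor, at 601 and 750. Proliferation genes thus lay on both sides of equality.

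In lipid metabolism, 5 of 18 lipogenesis genes were higher and 1 lower (median log2 ratio 0.27). For this and the lists that follow, the shares over all genes were 8.73% higher and 10.3% lower. Fatty acid synthase (Fasn) was at 241 and 1228, 5.10-fold higher, ATP citrate lyase (Acly) 3.50-fold on an _x_at probe set but 1.31-fold on the plain one, and the desaturase Fads2 at 261 and 1356, 5.20-fold, though the second probe set of Fads2 was 1.30-fold lower. Elovl1, an elongase of very long fatty acids, was 2.76-fold and 2.64-fold higher on 2 of its 4 probe sets, and Scd1 was 2.35-fold lower on 1 probe set and 1.24-fold on the other, with log2 ratios of -0.95 under quantile normalization, -0.91 under loess and -0.98 under a floor at the 60th percentile. Of 20 cholesterol synthesis genes 0 were higher and 0 lower. Cd36, a fatty acid translocase, was at 4979 and 3823 on its brightest probe set, 1.30-fold lower, with its others 2.18-fold and 1.85-fold lower. Among 17 NRF2 target genes 5 were higher and 0 lower; Tkt and Pgd of the pentose phosphate pathway were 2.85-fold and 2.58-fold higher. Cyp2b10, a cytochrome induced through the receptor CAR, was at 8432 and 19828, 2.35-fold higher (log2 ratio 0.91 under quantile normalization), and Cyp2c65 at 10803 and 3367, 3.21-fold lower. Of 27 conjugating enzymes 2 were higher and 4 lower; the sulfotransferase Sult1d1 was at 11771 and 3537 and at 7886 and 3534, 3.33-fold and 2.23-fold lower, and the glutathione transferase Gstk1 was 3.34-fold higher. Calr, a chaperone of the endoplasmic reticulum, was 2.29-fold to 2.37-fold higher on 3 of 3 probe sets, with a log2 ratio of 0.98 on its brightest after quantile normalization.

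The supported lower genes with the widest differences were spread over several cell functions. Zfp207, a zinc finger protein of the mitotic spindle, was at 7252 and 496, 14.6-fold lower; 3 of its 5 probe sets were 2-fold or more lower and the others 1.30-fold and 1.74-fold. Nadk2, the mitochondrial NAD kinase, was at 4628 and 555, 8.34-fold lower, with 3 of 4 probe sets 2-fold or more lower. Rp2, an activator of the GTPase activity of Arl3, was at 1349 and 167, 8.06-fold lower. Malat1, an abundant nuclear long noncoding RNA, was at 26594 and 12700, 2.09-fold lower, with 7 of 7 probe sets lower and 4 of them by 2-fold or more; its log2 ratio was -0.92 with the gene medians set equal. The signalling adaptor Crk was at 4085 and 1378, 2.96-fold lower with 4 of 5 probe sets past 2-fold, and the scaffold gene Lin7c at 2188 and 643, 3.40-fold lower with 4 of 4. Tmed7, a cargo receptor of the early secretory pathway, was 2.34-fold lower (log2 ratio -0.17 on plain probe sets), Scoc 4.05-fold, the lipid phosphatase Mtm1 2.47-fold and the SUMO protease Senp2 3.45-fold lower. Serinc1, a serine incorporator, was at 1466 and 568, 2.58-fold lower with 3 of 4 probe sets past 2-fold. Rpe, an epimerase of the pentose phosphate pathway, was 3.50-fold and 3.66-fold lower on both of its probe sets above the floor. Gmfb, glia maturation factor beta, was at 4909 and 2287, 2.15-fold lower with 3 of 5 probe sets past 2-fold; its log2 ratio was -0.96 with the gene medians set equal. Of 25 nuclear receptors 5 were higher and 4 lower, against 8.73% and 10.3% of all genes. The glucocorticoid receptor Nr3c1 was at 3927 and 1397 and at 2828 and 873 on its brightest probe sets, 2.81-fold and 3.24-fold lower, and the clock repressor Nr1d2 was at 5034 and 2046, 2.46-fold lower. Hnf4g, an intestinal receptor, was 2.01-fold, 4.78-fold and 2.48-fold lower on its 3 probe sets, with a log2 ratio of -0.87 on the brightest after the gene medians were set equal.

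Lists of mineral handling, protein handling and RNA processing differed in how many members were called. Of all genes 8.73% were higher and 10.3% lower, and of genes with a signal of 1000 or more 15.1% and 6.76%. Of 24 iron, heme and copper genes 2 were higher and 1 lower; Ireb2, the iron regulatory protein, was at 3189 and 1075, 2.97-fold lower. Among 10 zinc genes, the zinc importer Slc39a4 was at 1414 and 4468, 3.16-fold higher, and the metal exporter Slc30a10 at 1197 and 432, 2.77-fold lower. Of 9 calcium and vitamin D genes 4 were higher and 0 lower, among them the calcium pump Atp2b1 at 3409 and 8924, 2.62-fold, though its other probe sets were 1.43-fold and 1.07-fold higher. Of 18 ubiquitin and proteasome genes 6 were higher and 0 lower; Psmd4, the ubiquitin receptor of the proteasome, was 2.91-fold higher on 1 probe set, 1.41-fold on another and 1.88-fold lower on the last. Of 24 chaperone and stress genes of the endoplasmic reticulum 5 were higher and 2 lower, with Creld2 at 808 and 2234, 2.77-fold higher, and Dnajb9, a cofactor of BiP, at 6250 and 2611, 2.39-fold lower. These lists therefore held differences in both directions, except those of calcium and of the proteasome.

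Of 31 spliceosome and RNA-binding genes 2 were higher and 3 lower, with a median log2 ratio of -0.06. For this and the lists that follow, 8.73% of all genes were higher and 10.3% lower. Snrpb, a core protein of spliceosomal particles, was 2.68-fold and 2.09-fold higher, while the splicing factor Srsf10 was at 1358 and 501, 2.71-fold lower, and Luc7l2 at 4816 and 1784, 2.70-fold lower, with 2 of its 7 probe sets past 2-fold. Of 18 immediate early genes 1 was higher and 0 lower: Jund, a subunit of the factor AP-1, at 4594 and 21640, 4.71-fold, with a dim second probe set 1.79-fold lower. Of 37 respiratory chain genes 2 were higher and 0 lower, and the median was 0.05. Of 23 genes of fatty acid oxidation 4 were higher and 1 lower, with Acads, a short-chain acyl-CoA dehydrogenase, 2.88-fold higher and the peroxisomal enzyme Ehhadh 2.19-fold lower (log2 ratio -0.99 with the gene medians set equal). Among markers of other cells, 0 of 12 fibroblast genes were called either way, and 1 of 9 endothelial genes and 1 of 8 of enteric neurons and glia were lower. Most members of these lists lay within 2-fold.

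Features other than signal differed between the supported groups. Of the 135 higher genes 77.8% were read by a multi-transcript probe set as their brightest, against 21.7% of the 106 lower genes and 43.2% of the 2959 genes eligible. The median genomic span was 16.8 kb for the higher and 39.2 kb for the lower genes, against 27.8 kb for those eligible. Promoter windows were held for 77.0% of the higher and 79.2% of the lower genes, against 82.2% of those eligible. Because of this incomplete cover, motif share and base composition of the supported groups are not compared here. Only 36 of the 241 supported genes belonged to any of the 60 lists.

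Probe sets of a gene could also oppose each other. Of bright genes, 77 had probe sets 2-fold apart from equality in both directions. The widest gaps were in Ctse, a gastric and epithelial aspartic protease, at 668 and 2535 on 1 probe set (3.80-fold higher) and at 1579 and 123 on the other (at least 11.4-fold lower), and in the noncoding RNA gene Tug1, where 1 probe set was 10.4-fold lower and another at least 2.17-fold higher. Cct3, a chaperonin subunit, ranged from 5.40-fold higher to at least 3.83-fold lower. Pigq, of glycolipid anchor synthesis, ranged from 3.86-fold higher to at least 4.94-fold lower, and the cohesin subunit Rad21 from 2.53-fold higher to at least 7.14-fold lower. Of 13 genes used as references 3 were higher and 2 lower. The shares were 8.73% and 10.3% over all genes, and 15.1% and 6.76% of genes with a signal of 1000 or more. Actb was at 85489 and 85604, Hprt was 2.49-fold lower and Polr2a 3.86-fold higher on its brightest probe set. All 18 ribosomal protein genes measured stayed within 2-fold. Averaging all probe sets of a gene in place of taking the brightest left 45 of the 150 named and called genes under 2-fold, among them Nfe2l2, Nrip1, Tkt, Pgd, Slc43a2, Elovl1, Fads2, Thra, Nr3c1, Cd44, Jund, Atp2b1, Luc7l2 and Psmd4. Probe sets below the floor on both arrays entered this mean at a log2 ratio of 0. That lowered the mean for genes such as Cd44, whose measured probe sets were both past 2-fold.

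On the liver arrays, 233 of the 241 supported genes were above the floor, and 18 (7.73%) were also 2-fold or more apart on the same probe set, 14 in the same direction. Of all 2905 genes that met the signal and probe set requirements and lay above the floor in liver, 5.23% were 2-fold apart there, and 5.01% of the 2672 that were not supported; the difference between these shares was not tested. In transgenic liver Cela3b was at least 3.85-fold, Prss2 at least 2.96-fold, Ckap4 at least 2.70-fold and Mcm6 at least 4.59-fold higher, since their wild-type liver signals lay under the floor, and Trim30d 2.78-fold lower. Mme, 2.41-fold lower in duodenum, was 2.84-fold lower in liver. The opposed genes were H2-Ab1, Pank1, Kif22 and Bckdk. For Cyp1a1 the liver fold was 33.9 against 9.86 in duodenum, and for Tiparp 6.72 against 2.04, values that were not tested against each other.

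**Figure D5:**
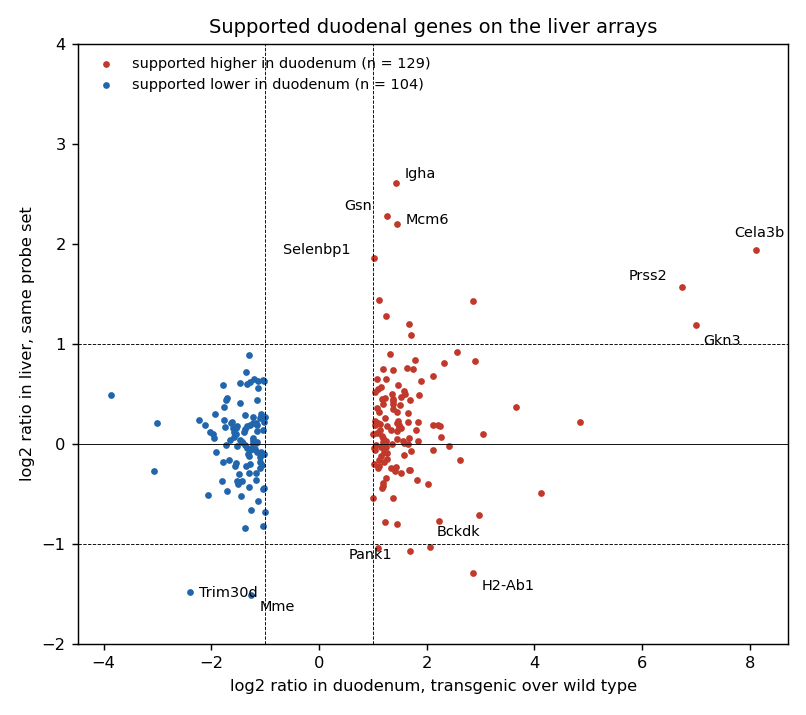
Log2 ratio of transgenic over wild type in duodenum (horizontal axis) and liver (vertical axis) on the same probe set for the 233 supported genes above the floor in liver; red genes were supported higher and blue lower in duodenum, dashed lines mark 2-fold. Most points lie within 2-fold in liver, and H2-Ab1 is among the 4 that lie past 2-fold on opposite sides.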

How the data were processed

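The deposited values are linear signal intensity per probe set. The authors computed them with MAS5 (per the submitters' processing notes, which name no version); detection calls were not analysed here. Trimmed of 2% at either end, the mean of every array was 500, so each ratio is relative to that scaling, and no further normalization was applied. Of 45101 probe sets, 64 are Affymetrix controls; 34958 had 1 gene symbol in the platform annotation, 932 had several and were not used, and 9211 were not listed there. RefSeq (GRCm38.p6) served to update symbols through their Entrez identifiers. Signals were raised to the floor of 138.2, the 40th percentile averaged over the duodenum arrays, and each gene was represented by its brightest probe set. Where 1 array was at the floor the fold is only a lower bound ("at least"). The median probe set had a signal of 229.3 in wild-type and 167.7 in transgenic duodenum; precision is limited by having a single array per group.

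The rule for named genes took the 15 supported genes highest and lowest by the smaller of their 2 largest ratios, extreme members of each list, fixed AhR genes, the 5 genes with the widest disagreement, and genes also 2-fold in liver; some list extremes, most of them within 2-fold, are not printed. Further list members and the genes supported by plain probe sets were chosen after their values were seen. The comparison, the 60 lists (36 of gene groups, 24 of cell type markers, 919 of 1021 symbols matched) and the rules were chosen with earlier results of these data known. Alternatives were 4 scalings, 3 floors, 2 rules for probe sets, 2 signal minimums and a 3-fold threshold. The mean of probe sets counted those below the floor on both arrays as a log2 ratio of 0. Scripts were tested on simulated data. Python 3.11.15, pandas 2.3.3, numpy 2.4.6 and statsmodels 0.14.6 were used.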

Additional observations from a re-analysis of the deposited data

Results flagged for a closer look

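In 4 supported genes the duodenum and liver ratios lay 2-fold or more on opposite sides; with 1 array per group this difference between tissues was not tested. H2-Ab1, an MHC class II chain, had a log2 ratio of 2.85 in duodenum and -1.30 in liver. Bckdk, the kinase that restrains branched-chain amino acid breakdown, was at 2.06 in duodenum (signals 276 and 1149) and -1.03 in liver. Pank1, a kinase of coenzyme A synthesis, was at 1.69 in duodenum (signals 363 and 1172) and -1.08 in liver. Kif22, a chromosome-binding kinesin, was at 1.10 in duodenum (signals 648 and 1386) and -1.05 in liver.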

How the results depend on the processing

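No paired analysis was possible because each group has 1 array. Against 1277 higher and 1508 lower genes, the counts were 2067 and 2855 under a 20th-percentile floor, 2138 and 2911 with no floor and 16 added to each signal, 721 and 930 with the mean of all probe sets, 338 and 264 at 3-fold, and 936 and 617 under a 60th-percentile floor. Quantile normalization (1527 and 1041), loess (1397 and 1189), equal medians (1703 and 1135), the hybridization controls as scale (1143 and 1702) and plain probe sets alone (872 and 1475) kept both counts within 1.5 times. Quantile normalization moved the median of all genes by 0.15 and equal medians by 0.13 on the log2 scale. Supported genes numbered 22 higher without multi-transcript probe sets (83 lower, 72 of them shared), 33 higher and 15 lower at 3-fold, and 160 and 68 lower with a signal minimum of 500 and 2000; under the 4 scalings they were between 118 and 197 higher and between 78 and 125 lower, and 98 of the 135 higher and 88 of the 106 lower genes were shared under quantile normalization (98 and 91 under loess). Of 150 named and called genes, 11 fell under 2-fold under quantile normalization, 11 under loess and 11 under the 60th-percentile floor. The MHC class II median of 1.38 was 2.22 under the 60th-percentile floor and 0.055 without multi-transcript probe sets, where the exocrine pancreas median was 3.04; 56 of 60 list medians moved little in that setting. Log2 ratios reversed for Slc22a18 (-0.49), Ctse (-0.79) and Scd2 (-0.057) with the mean of probe sets and for Alad (-0.57), Wars (-0.24), Hspa1b (-0.14), Itgae (-0.47) and Cct3 (-1.94) without multi-transcript probe sets; the cause was not tested. Signal near the floor limits genes such as Cyp1b1, whose log2 ratio was 0.32 under the 60th-percentile floor.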
